A study of Rattus norvegicus with 31 samples.

Results

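The xenosensors of the liver are transcription factors that detect foreign chemicals or the stress they cause, and the genes described here are such receptors with their dimer partners and an inhibitor. They were chosen by symbol, as every row of the deposited tables named Nr1i3 (the receptor CAR), Nr1i2 (PXR), Rxra (the dimer partner RXRA), Ahr (the aryl hydrocarbon receptor), Arnt (its dimer partner), Nfe2l2 (NRF2), Keap1 (the inhibitor of NRF2), Ppara (PPAR alpha), Hnf4a (HNF4 alpha) or Nr3c1 (the glucocorticoid receptor). This gave 10 of the 26312 genes listed by Ensembl identifier. All 10 passed the filter on low counts (2 or more counts over all rats) that left 19904 genes for testing. They code for the receptors themselves and not for the enzymes these control.

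RNA-Seq was done on livers of 31 young adult female Wistar rats (Crl:WI) gavaged daily for 28 days, each rat being 1 sample. The 8 Control rats received the vehicle, aqueous carboxymethyl-cellulose, which all other groups received too. Thiacloprid (THI, a neonicotinoid insecticide) was given at 108 mg/kg bw/day to 4 rats, imazalil (IMZ, an azole fungicide) at 93 mg/kg bw/day to 4 rats, and clothianidin (CTD, a neonicotinoid) at 288 mg/kg bw/day to 3 rats. The mixtures, of 4 rats each, held about 50% of each single dose. THI + IMZ contained 54 and 46 mg/kg bw/day, THI + CTD contained 54 and 134 mg/kg bw/day, and IMZ + CTD contained 46 and 135 mg/kg bw/day of the compounds in the order named. According to the methods of the study, at least 1 rat on this dose of CTD had to be killed in a moribund state.

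CAR and PXR are nuclear receptors that, once activated by drugs or pesticides, pair with RXRA and switch on genes of drug metabolism such as those of the CYP2B and CYP3A families. The aryl hydrocarbon receptor moves to the nucleus after ligand binding, pairs with ARNT and induces CYP1A enzymes, while NRF2 is released from KEAP1 by electrophiles and induces antioxidant genes. These receptors are switched largely by ligands, location and protein turnover, so that the mRNA of a receptor and the activity of the protein are separate quantities, and only the mRNA was measured here.

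Of the 10 genes, 5 passed the test in at least 1 treatment, and the stretches just upstream of their transcription starts are shown for the 4 of them whose RefSeq window in the rat assembly GRCr8 lies outside the annotated gene. They are printed because these are the promoters of the receptors and partners whose mRNA passed the test. The fifth, Ppara, has its window inside its annotated gene. All 10 symbols matched an entry. Sequences run 5′ to 3′ on the strand of the gene, and capitals mark matches to 7 searched motifs on either strand.
Nr1i3 (chr13:86165170-86165326, plus strand): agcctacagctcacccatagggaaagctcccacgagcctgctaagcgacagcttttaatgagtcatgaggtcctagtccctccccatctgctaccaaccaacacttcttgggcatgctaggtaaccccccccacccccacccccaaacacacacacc
Nr1i2 (chr11:75965467-75965716, plus strand): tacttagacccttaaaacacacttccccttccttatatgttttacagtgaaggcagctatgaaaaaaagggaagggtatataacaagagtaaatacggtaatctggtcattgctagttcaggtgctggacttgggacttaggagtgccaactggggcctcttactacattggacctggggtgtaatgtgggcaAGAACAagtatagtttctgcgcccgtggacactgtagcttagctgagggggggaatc
Rxra (chr3:31387642-31387891, plus strand): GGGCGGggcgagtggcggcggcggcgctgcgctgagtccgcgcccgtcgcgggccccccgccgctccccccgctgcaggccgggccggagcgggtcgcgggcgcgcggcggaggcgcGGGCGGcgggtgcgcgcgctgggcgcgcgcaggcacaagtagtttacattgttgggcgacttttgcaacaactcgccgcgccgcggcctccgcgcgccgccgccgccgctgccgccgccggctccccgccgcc
Arnt (chr2:185686453-185686702, plus strand): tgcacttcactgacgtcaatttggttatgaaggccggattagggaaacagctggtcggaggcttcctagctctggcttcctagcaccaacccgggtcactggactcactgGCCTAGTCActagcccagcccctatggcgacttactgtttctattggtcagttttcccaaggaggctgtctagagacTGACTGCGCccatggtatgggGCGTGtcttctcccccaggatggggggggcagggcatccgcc
The motifs included AGGTCA (a nuclear receptor half-site) and TGTTCT (a glucocorticoid receptor half-site), each only a part of an element. The others were GCGTG (the core bound by AHR and ARNT), TGACNNNGC (the core bound by NRF2), CACGTG (the E-box), GGGCGG (the GC box) and TATAAA (the TATA box). The 157 bases before Nr1i3 held no match. The 250 bases before Nr1i2 held 1 match, TGTTCT on the opposite strand, a motif present in 17.5% of all 33469 windows of 250 bases. Before Rxra there were 2 GC boxes (30.5% of all windows held one) in a stretch of 82.8% GC with 52 CpG dinucleotides, against medians of 51.2% and 5 over all windows. Arnt had 1 GCGTG core (25.9% of windows) and 2 TGACNNNGC cores (10.1% of windows), none of which overlapped another. For the other motifs the shares of all windows were 14.1% for AGGTCA, 5.59% for CACGTG and 12.9% for TATAAA. These matches are letters in a window and no binding was measured.

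The level of a gene is given in CPM, its counts scaled to the size of the library with the TMM factors of edgeR, and levels are compared only within a gene because transcript length was not corrected for. Library totals ran from 32726300 to 101230067 counts in Control and from 31820322 to 54791509 in the treated rats, and the smallest count of any of the 10 genes was 122 (Nr1i3 in Control replicate 3), where counting error alone amounts to 9.05% of the value. The summed level of 10 hepatocyte markers ranged from 169575 to 261665 CPM over all 31 rats, with overlapping ranges in the 7 groups. The sum of 15 cell division genes was 11.5 to 25.8 CPM in Control and higher, without overlap, in CTD (64.2 to 224 CPM), THI + CTD (28.5 to 74.9 CPM) and IMZ + CTD (39.3 to 105 CPM). The ranges in IMZ (25.5 to 60.7 CPM) and THI + IMZ (22.0 to 115 CPM) overlapped with that of Control and reached well beyond it, and THI had 10.9 to 26.1 CPM. Markers of Kupffer cells summed to 520 to 824 CPM in Control, 402 to 576 CPM in CTD and 424 to 523 CPM in THI + CTD. They summed to 448 to 605 CPM in THI + IMZ, 375 to 642 CPM in IMZ + CTD, 502 to 786 CPM in THI and 604 to 704 CPM in IMZ. Of the 10 markers, 5 were called lower in CTD and 5 in THI + CTD, where 12.7% and 4.39% of all genes were called, and 0 in each other treatment. Sums of markers of T and NK cells, stellate cells and sinusoidal endothelial cells overlapped with Control in every treatment. The sum of 7 cholangiocyte markers was 27.2 to 72.4 CPM in Control and lower, without overlap, in CTD (16.2 to 25.7 CPM) and THI + CTD (16.7 to 25.8 CPM). The 7 did not fall as a set, since 1 was called lower in each of these treatments. Their median log2 fold change was 0.14 in CTD and 0.20 in THI + CTD. Markers of B cells and plasma cells summed to less than 1 CPM in every rat and lay below all controls in THI, THI + CTD and IMZ + CTD. The part of these shifts in the results below was not tested. In bulk liver, fewer cells of a type and less RNA per cell cannot be told apart. Each treatment was compared with the same 8 Control rats, so the 6 comparisons are not independent of each other. A gene was called where the edgeR quasi-likelihood test gave a Benjamini-Hochberg adjusted p under 0.05 over all 19904 genes.

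Of the xenosensor transcripts, CAR mRNA moved most. It was the one transcript of the 10 whose group mean rose by more than 100% of the Control mean, and it was called in CTD, THI + IMZ and THI + CTD. In addition, PPAR alpha mRNA rose in THI + IMZ, RXRA and ARNT mRNA fell in CTD, and PXR mRNA fell in IMZ + CTD. No change in Ahr, Nfe2l2, Keap1, Hnf4a or Nr3c1 passed the test in any of the 6 treatments.

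**Figure D1:**
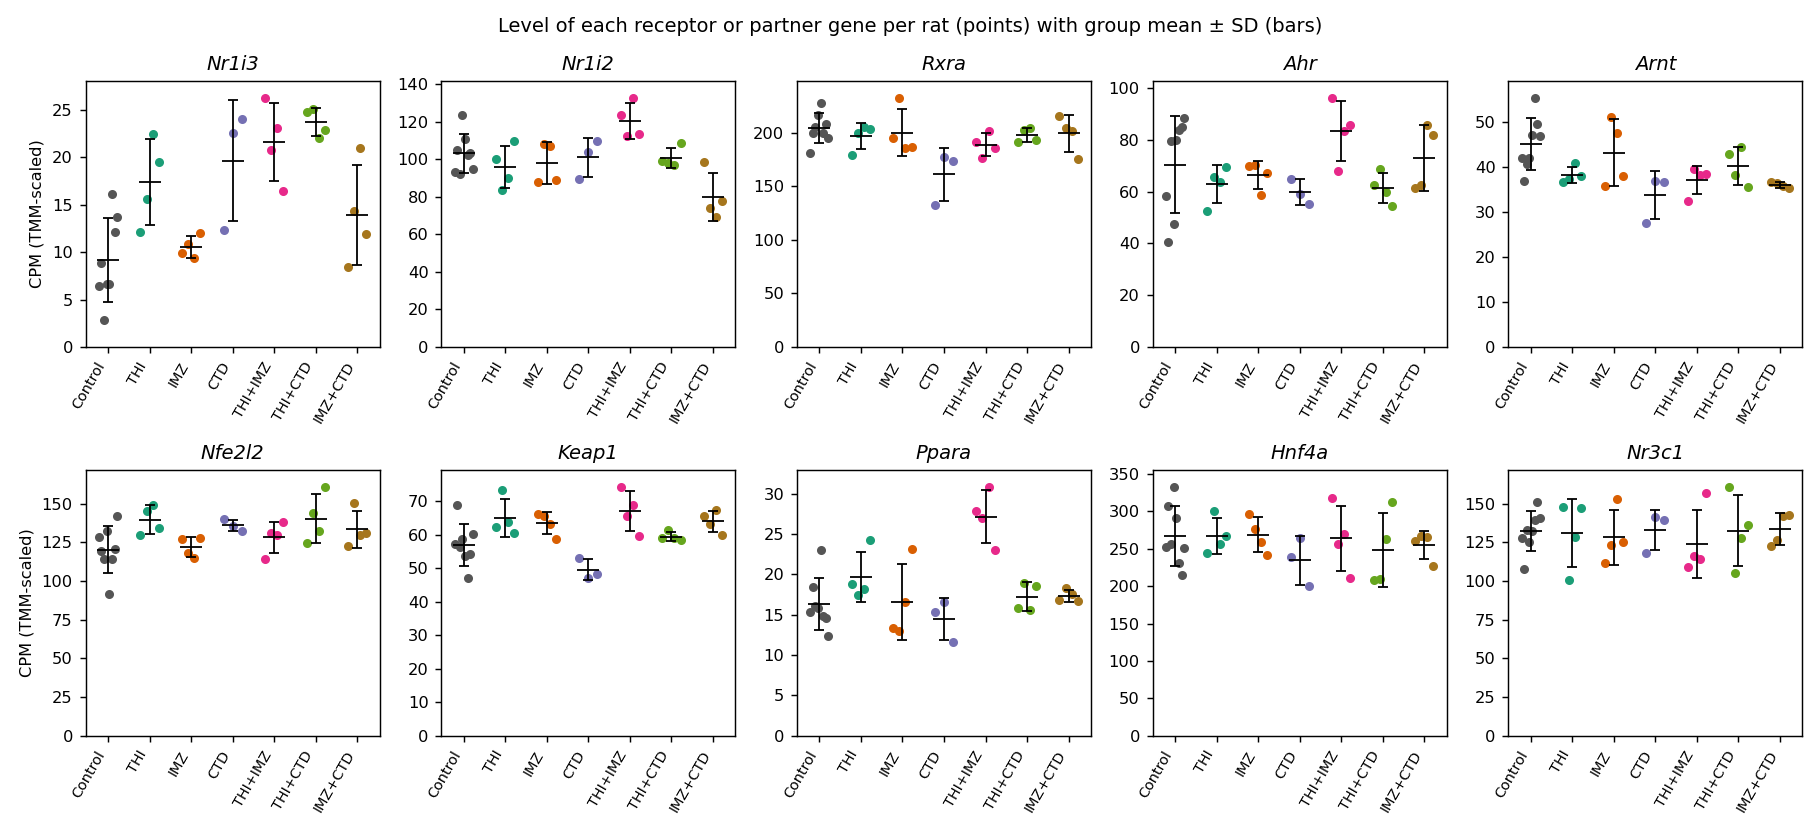
Level of each gene in CPM (vertical axes from 0, TMM-scaled) in the 31 rats, shown as points by group, with the group mean and SD as black bars (n = 8 for Control, 3 for CTD and 4 for each other group). Nr1i3 lay at 16.5 CPM or more in every THI + IMZ and THI + CTD rat and at 16.1 CPM or less in every Control rat, while Hnf4a and Nr3c1 overlapped with Control in all groups.

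In the single treatments, 0 of the 10 genes were called in THI, where 0.543% of all genes were, and 0 in IMZ, where 0.251% were. The Wald test of DESeq2 called 0 in both as well. Before adjustment, 4 of the 10 in THI (8.68% of all genes) and 1 in IMZ (8.08%) had a p under 0.05. CTD changed 3 of the 10, 1 of them higher and 2 lower, against 12.7% of all genes, 6.62% higher and 6.03% lower. In THI + IMZ 2 genes were higher, where 1.18% of all genes were called and 0.849% were higher. In THI + CTD 1 was higher (4.39% of all genes called, 2.67% higher), and in IMZ + CTD 1 was lower (1.46% called, 0.452% lower). The median log2 fold change of the 10 genes ran from -0.18 in CTD to 0.16 in THI + IMZ, where the medians of all genes tested were -0.07 and -0.02. A test of any difference among the 7 groups called 4 of the 10, Nr1i3, Nr1i2, Keap1 and Ppara (9.51% of all genes). Arnt missed it at an adjusted p of 0.0523 and passed without Control replicate 2 or 3, IMZ replicate 1 or 4, or THI+CTD replicate 4, as well as with filterByExpr, without a filter or with thinned counts (5 of the 10 called in each), and Keap1 was lost without CTD replicate 2.

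**Figure D2:**
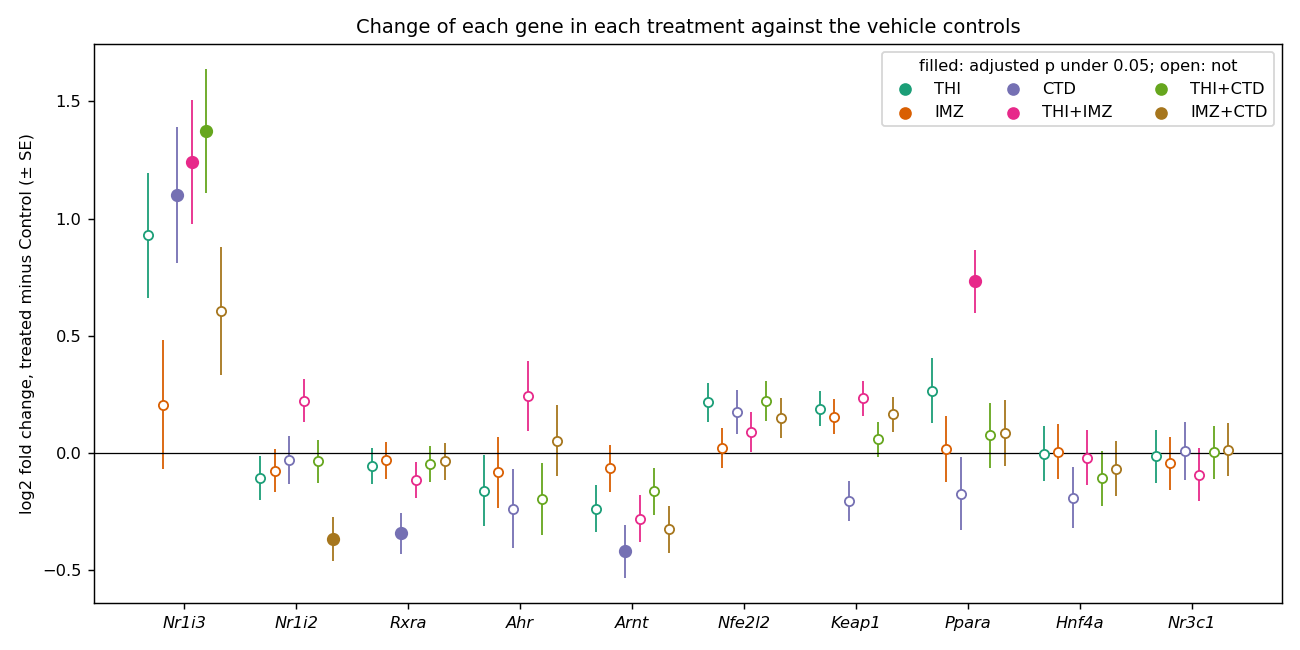
Log2 fold change of each gene in each of the 6 treatments against Control (vertical axis, edgeR estimate ± SE), filled where the adjusted p was under 0.05. Filled points are Nr1i3 in CTD (1.1), THI + IMZ (1.24) and THI + CTD (1.37), Ppara in THI + IMZ (0.73), Rxra (-0.34) and Arnt (-0.42) in CTD, and Nr1i2 in IMZ + CTD (-0.37).

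Nr1i3 codes for CAR, which drives CYP2B induction in the liver. In the 8 Control rats its level ran from 2.85 to 16.1 CPM with a median of 7.74. The CTD rats had 12.3, 22.6 and 24.1 CPM, the THI + IMZ rats 26.2, 20.7, 23.1 and 16.5 CPM, and the THI + CTD rats 24.8, 25.1, 22.0 and 22.9 CPM. All rats on THI + IMZ and on THI + CTD lay above all controls, and 2 of the 3 CTD rats did. The log2 fold changes were 1.1 ± 0.29 (SE, adjusted p = 0.00987) in CTD, 1.24 ± 0.26 (adjusted p = 0.0122) in THI + IMZ and 1.37 ± 0.26 (adjusted p = 0.00195) in THI + CTD, or means of 2.15, 2.36 and 2.59 times that of Control. Among all genes, all treated rats lay above all controls for 0.794% in THI + IMZ and 2.14% in THI + CTD.

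In the other treatments Nr1i3 was not called. The THI rats had 12.1, 15.6, 22.4 and 19.5 CPM and all 4 lay above the Control mean of 9.16 CPM, 2 of them above all controls (log2 fold change 0.93 ± 0.27, adjusted p = 0.153). With 9.95, 10.9, 9.37 and 12.0 CPM the IMZ rats lay within the range of Control (0.21 ± 0.27, adjusted p = 0.87). In IMZ + CTD the levels of 8.46, 14.3, 21 and 11.9 CPM were spread across that range and beyond it (0.61 ± 0.27, adjusted p = 0.335). In order of group means, Control was followed by IMZ, IMZ + CTD, THI, CTD, THI + IMZ and THI + CTD, and the range of each group overlapped with that of the next. Whether treatments differ from each other was not tested.

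Single rats decided some of these calls. Nr1i3 was also called in THI once Control replicate 6, its highest control, was left out (log2 fold change 1.1, adjusted p = 0.0433). In CTD the call was lost without replicate 2 (0.99, adjusted p = 0.0661) or replicate 3 (0.93, adjusted p = 0.0704). The calls in CTD (adjusted p = 0.0597) and THI + IMZ (adjusted p = 0.0782) were also lost in fits of only the treatment and Control. With all groups in the fit, those in THI + IMZ and THI + CTD held without any 1 of the 31 rats. Control rats varied widely in this gene. Its coefficient of variation among them was 48.3%, larger than that of 98.7% of the 3880 genes whose mean was within a factor of 2 of it, whose median was 11.5%. Next to it Ahr had the widest spread among the controls (26.6%, larger than 96.3% of 2118 genes of like level), and Rxra the smallest (6.93%).

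The annotated span of Nr1i3 overlaps that of Tomm40l, a mitochondrial import gene, in the assembly GRCr8, and its neighbour to the right is Apoa2, an apolipoprotein gene. Whether the counting used the strand is not given in the sources used here, so reads from the overlap may be shared. Tomm40l lay between 2.46 and 6.21 CPM in all rats and was called in no treatment. Its log2 fold changes were -0.15 ± 0.17 in CTD, -0.11 ± 0.16 in THI + IMZ and -0.20 ± 0.16 in THI + CTD. Apoa2 was called in CTD only, with a log2 fold change of -0.36 ± 0.11 (adjusted p = 0.0322). Where Nr1i3 rose, neither of these genes was called higher.

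Nr1i2 codes for PXR, the receptor for a broad range of drugs that induces CYP3A. Its level in Control ran from 92.3 to 123 CPM with a median of 103. In IMZ + CTD the levels were 98.6, 74.2, 69.0 and 77.6 CPM. A single rat of this group, replicate 1, lay within the Control range and the other 3 lay below it. The log2 fold change was -0.37 ± 0.09 (adjusted p = 0.0368), a mean of 0.775 times that of Control. This call was not stable, as it was lost without Control replicate 4, 5 or 7 or without IMZ+CTD replicate 2, 3 or 4 (adjusted p = 0.0506 to 0.201), and in a fit of IMZ + CTD and Control alone (adjusted p = 0.0641).

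THI + IMZ was the treatment with the highest PXR mRNA, at 123, 112, 132 and 113 CPM, with 2 of 4 rats above all controls (log2 fold change 0.22 ± 0.09, adjusted p = 0.332). The other 4 treatments had means of 95.8 to 101 CPM against 103 CPM in Control, with adjusted p-values of 0.751 or more. Nr1i2 overlaps the span of Gsk3b, a kinase gene. Gsk3b was not called in IMZ + CTD (-0.11 ± 0.11, adjusted p = 0.687) and was called higher in CTD (0.35 ± 0.11, adjusted p = 0.0399), where Nr1i2 was not (-0.03 ± 0.10, adjusted p = 0.898).

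Rxra codes for the dimer partner that CAR, PXR and PPAR alpha share. In Control, levels of 181 to 228 CPM with a median of 203 were measured. The 3 CTD rats had 133, 178 and 173 CPM, all below all controls, as were 5.48% of all genes in this comparison. The log2 fold change was -0.34 ± 0.09 (adjusted p = 0.00801), a mean of 0.789 times that of Control. Without CTD replicate 1, the lowest, it was -0.22 and no longer called (adjusted p = 0.153). In the other 5 treatments the group means lay between 189 and 200 CPM, and the smallest adjusted p was 0.618.

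Ahr codes for the dioxin receptor. Control rats ranged from 40.6 to 88.3 CPM around a median of 79.9, with 3 rats at 58.1 CPM or less and the other 5 at 79.7 CPM or more. The THI rats had 52.7, 65.8, 63.7 and 69.7 CPM, the IMZ rats 70.1, 70.2, 58.6 and 67.1 CPM, and the CTD rats 65.1, 59.0 and 55.1 CPM. All of these lay in the gap or among the low controls, below the Control mean of 70.4 CPM. In THI + IMZ the levels were 96.0, 68.1, 83.6 and 85.7 CPM, which gave the largest log2 fold change of this gene (0.24 ± 0.15, adjusted p = 0.581). Its differences from Control in the 6 treatments, from -0.24 to 0.24, were within the spread among rats.

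Arnt codes for the partner with which the aryl hydrocarbon receptor binds DNA, and also pairs with hypoxia factors. Control rats ranged from 36.8 to 55.2 CPM with a median of 44.5. The CTD rats had 27.6, 36.8 and 36.7 CPM, and the IMZ + CTD rats 36.6, 36.3, 35.6 and 35.4 CPM. In CTD 2 of 3 rats lay below all controls and the third was at the lower end of their range, while in IMZ + CTD all 4 lay just below the lowest control (1.01% of all genes did so in this comparison). The fall was called in CTD (log2 fold change -0.42 ± 0.11, adjusted p = 0.0117) and not in IMZ + CTD (-0.32 ± 0.10, adjusted p = 0.109). Without CTD replicate 1 the log2 fold change was -0.29 and the call was lost (adjusted p = 0.159).

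All 6 group means of Arnt lay below the 45 CPM of Control, from 33.7 CPM in CTD to 43.1 CPM in IMZ. The rats on THI had 36.6, 37.4, 40.8 and 38.0 CPM, all below the Control mean (-0.24 ± 0.10, adjusted p = 0.477). Similarly, those on THI + IMZ had 32.5, 39.4, 38.2 and 38.4 CPM (-0.28 ± 0.10, adjusted p = 0.225) and those on THI + CTD 42.9, 38.1, 44.4 and 35.5 CPM (-0.16 ± 0.10, adjusted p = 0.413). CTD replicate 1, which decided the calls of both Rxra and Arnt, had the lowest level of both of all 31 rats. It also had the highest sum of cell division genes, 224 CPM against 78.6 and 64.2 CPM in the other CTD rats, and its 10 hepatocyte markers summed to 199564 CPM, within the range of Control (195486 to 260395 CPM). The part of dividing cells in the fall of Rxra and Arnt was not tested.

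Nfe2l2 codes for NRF2, the activator of antioxidant genes. Control rats ranged from 91.5 to 142 CPM with a median of 120. The THI rats had 130, 146, 149 and 134 CPM and the THI + CTD rats 124, 144, 132 and 161 CPM. Every rat of these groups lay above the Control mean of 120 CPM, and 2 of 4 in each lay above all controls. The log2 fold changes, 0.22 ± 0.08 in both, did not pass the test (adjusted p = 0.432 and 0.143). In the other treatments the means were 122 to 136 CPM, and all 6 group means lay above that of Control.

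Keap1 codes for the adaptor that marks NRF2 for degradation. In Control its level ran from 47.2 to 69.1 CPM with a median of 56.8. THI + IMZ had the highest levels, 74.3, 65.8, 68.9 and 59.7 CPM (log2 fold change 0.23 ± 0.07, adjusted p = 0.143), and CTD the lowest, 53.1, 47.1 and 48.4 CPM (-0.20 ± 0.08, adjusted p = 0.115). CTD was the one treatment in which all rats lay below the Control mean of 57.1 CPM, while in each of the other 5 all rats lay above it. None of the 6 differences was called on its own, although the test over the 7 groups called the gene (adjusted p = 0.0143). Without Control replicate 2, its highest control, the THI + IMZ difference was called (0.28, adjusted p = 0.0317).

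Ppara codes for the fatty acid receptor that induces CYP4A and other genes of fat oxidation. Control rats ranged from 12.4 to 23.1 CPM with a median of 15.6. In THI + IMZ the levels were 27.9, 27, 30.8 and 23 CPM, of which 3 lay above all controls and the fourth just below the highest control. The log2 fold change of 0.73 ± 0.14 had the smallest adjusted p of the 10 genes in this comparison (0.00312) and held without any 1 of the 31 rats (0.67 to 0.82). The mean was 1.66 times that of Control.

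The other treatments left Ppara nearer to Control. The THI rats had 18.8, 17.4, 18.2 and 24.2 CPM, all above the Control mean of 16.3 CPM (0.27 ± 0.14, adjusted p = 0.594). With 13.4, 13, 16.6 and 23.2 CPM the IMZ rats were spread across the Control range (0.02 ± 0.14, adjusted p = 1). CTD, THI + CTD and IMZ + CTD had means of 14.5, 17.2 and 17.4 CPM, with adjusted p-values of 0.533 or more. In the test over the 7 groups the adjusted p was 0.00323.

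Hnf4a codes for a receptor that maintains hepatocyte identity and on which expression of CAR and PXR depends. Control rats ranged from 215 to 333 CPM with a median of 255. Group means lay between 234 CPM in CTD (239, 264 and 200 CPM) and 269 CPM in IMZ against 267 CPM in Control. The log2 fold changes ran from -0.19 ± 0.13 in CTD to 0.01 ± 0.12 in IMZ, and the smallest adjusted p was 0.391. Thus no difference beyond the spread among rats was detected.

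Nr3c1 codes for the glucocorticoid receptor, which also raises expression of CAR and PXR. In the controls it ranged from 107 to 151 CPM with a median of 133, and the group means lay between 124 and 134 CPM. The log2 fold changes lay in the narrowest range of the 10 genes, from -0.09 ± 0.11 in THI + IMZ to 0.01 ± 0.11 in IMZ + CTD, with adjusted p-values of 0.797 or more. A second row of the count table carries the same symbol in capitals, NR3C1, under another Ensembl identifier. It held 22.7% to 28.4% of the counts of both rows and was not called in any treatment either (log2 fold changes from -0.19 to 0.05). None of the other 9 genes had such a row.

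The design also allows each mixture to be set against a sum of its compounds weighted by dose, that is, the log2 fold changes of the single treatments multiplied by 0.5 for THI and IMZ and by 0.47 for CTD and then added. This asks whether the mixture did what its parts would do if log2 changes grew linearly with dose, an assumption that 1 dose per compound cannot check. None of the 10 genes departed from the sum at an adjusted p under 0.05 by edgeR, where 0.0151% of all genes did in THI + IMZ, 0.286% in THI + CTD and 1.16% in IMZ + CTD. Before adjustment, 4 of the 10 in THI + IMZ (6.46% of all genes), 0 in THI + CTD (9.66%) and 2 in IMZ + CTD (14.3%) had a p under 0.05. The Wald test of DESeq2 called 1, 0 and 1 of the 10, and 54, 174 and 603 of all genes. The sum uses the same Control rats as the mixture.

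**Figure D3:**
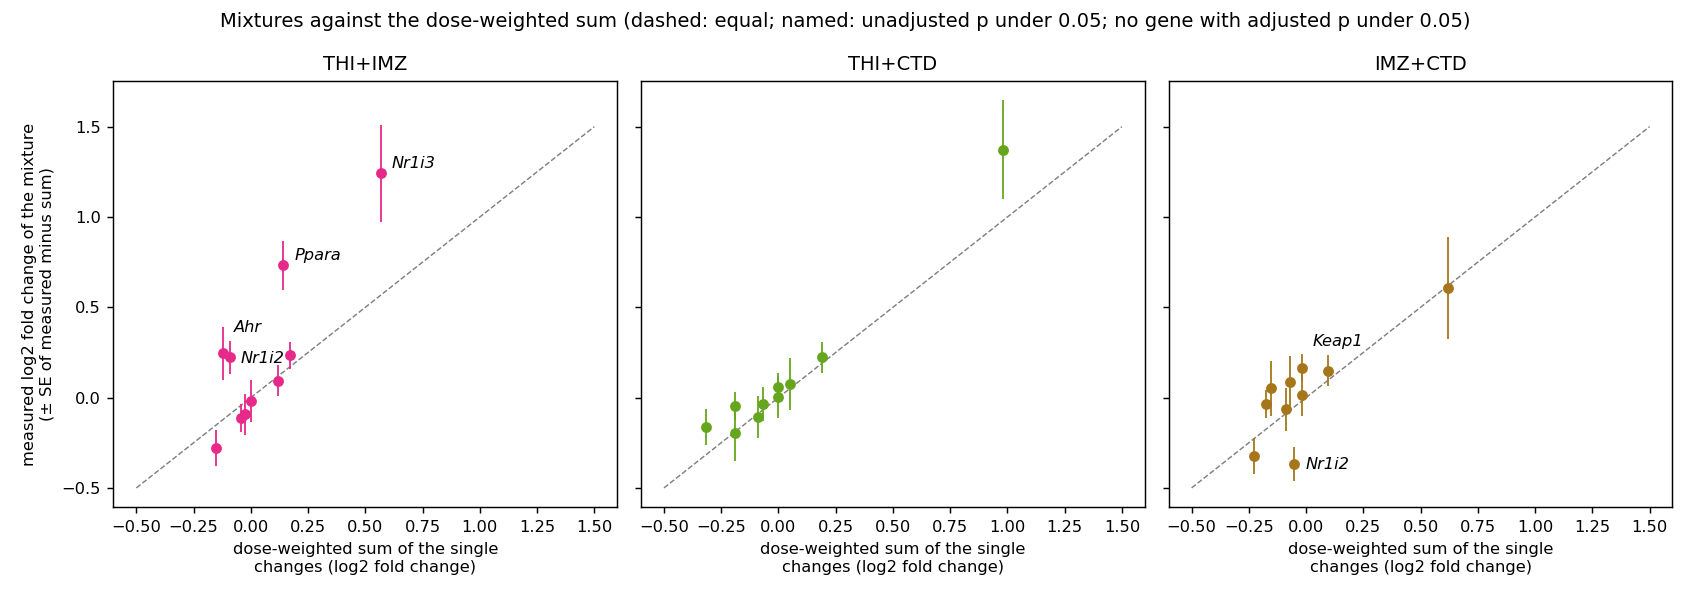
Measured log2 fold change of each gene in the 3 mixtures (vertical axis) against the dose-weighted sum of the single treatments (horizontal axis), with the SE of the difference as bars a dashed line where both are equal and names for genes with an unadjusted p under 0.05. In THI + IMZ the points of Nr1i3, Ppara, Ahr and Nr1i2 lay above the line, in THI + CTD no gene was named, and in IMZ + CTD Nr1i2 lay below it and Keap1 above it.

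In THI + IMZ the 4 genes farthest from the sum lay above it. Ppara was measured at 0.73 where the sum was 0.14 (difference 0.59 ± 0.14, adjusted p = 0.109). Nr1i3 was measured at 1.24 where the sum was 0.57 (0.67 ± 0.27, adjusted p = 0.649), Nr1i2 at 0.22 where it was -0.09 (0.31 ± 0.09, adjusted p = 0.344) and Ahr at 0.24 where it was -0.12 (0.37 ± 0.15, adjusted p = 0.674). In IMZ + CTD Nr1i2 lay 0.32 ± 0.10 below its sum (adjusted p = 0.0909) and Keap1 0.19 ± 0.08 above it (adjusted p = 0.244). The call of Ppara depended on the test and on 1 rat, since the Wald test of DESeq2 called it (0.59, adjusted p = 0.0166), as did edgeR without IMZ replicate 4 (0.70, adjusted p = 0.0306). For Nr1i2 in IMZ + CTD the same Wald test gave -0.32 (adjusted p = 0.0286), and edgeR without IMZ+CTD replicate 1 gave -0.43 (adjusted p = 0.025).

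Among the target genes of these receptors, Cyp2b1, Cyp2b2 and Cyp3a23/3a1 rose in all 6 treatments, each with log2 fold changes above the largest of any of the 10 genes. Of 12 indicator targets with a row, 3 were called higher and 1 lower in THI, 4 higher in IMZ, 6 higher and 2 lower in CTD, 4 higher in THI + IMZ, 5 higher and 2 lower in THI + CTD, and 3 higher and 1 lower in IMZ + CTD. The shares of all genes called were, in the same order, 0.543%, 0.251%, 12.7%, 1.18%, 4.39% and 1.46%. Median log2 fold changes of the 12 targets, from 0.20 in IMZ + CTD to 0.54 in THI, stood beside medians of all genes between -0.07 and -0.01. Cyp3a2 had no row under its symbol. Many of these targets were known to respond in these rats before they were listed, so that their directions are a description.

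Cyp2b1, a target of CAR, was at 0.0302 to 0.998 CPM in Control and had means of 264 CPM in THI, 158 in IMZ, 71.2 in CTD, 173 in THI + IMZ, 224 in THI + CTD and 18.7 in IMZ + CTD. The ranges of all 6 treatments lay above that of Control, and the log2 fold changes ran from 5.20 ± 0.82 to 9.02 ± 0.88 (adjusted p = 0.000718 or less). Cyp2b2, a close paralogue, was 12.6 to 62.2 times its Control mean. The study counted reads that mapped to a single place, so reads matching both paralogues alike would be missing from both. In IMZ, Nr1i3 had a mean of 10.6 CPM against 9.16 CPM in Control, and Cyp2b1 had levels of 13.5 to 472 CPM. The relation of Nr1i3 to Cyp2b1 across treatments was not tested. Cyp3a23/3a1, a target of PXR, had a mean of 0.135 CPM in Control and log2 fold changes of 2.28 to 3.80. In this row its level stayed low, with means from 0.673 CPM in IMZ + CTD to 1.94 CPM in IMZ. According to the study, RNA-Seq underestimated the rise of this gene when set beside qRT-PCR. The few counts here are therefore a poor measure of its level. Cyp3a23/3a1 was called in all 6 treatments, among them IMZ + CTD, where Nr1i2 was lower in a call that was not stable.

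Targets of the other receptors were less uniform. Cyp1a1, a target of the aryl hydrocarbon receptor, was called in IMZ (log2 fold change 3.28 ± 0.63, adjusted p = 0.00909) and CTD (3.01 ± 0.67, adjusted p = 0.00233), while Cyp1a2 was called in none. Among the targets of NRF2, Gclc was called higher in CTD and THI + CTD, SRXN1 in CTD, THI + IMZ and THI + CTD, and Nqo1 in none. In THI + IMZ, where Ppara rose, its targets Cyp4a1 (-0.23 ± 0.12, adjusted p = 0.471) and Pdk4 (-0.18 ± 0.17, adjusted p = 0.693) were not called. Of the targets of the glucocorticoid receptor, Tat fell in CTD and THI + CTD, and Tsc22d3 fell in THI, CTD, THI + CTD and IMZ + CTD, with means of 0.559 to 0.683 times that of Control, while Nr3c1 itself was not called in any of these.

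Around the 10 genes, 77 further genes were followed in 5 lists, namely other nuclear receptors, chaperones and cytoplasmic partners, coactivators and corepressors, bHLH-PAS and bZIP partners, and liver-enriched transcription factors. CTD was the treatment in which they were called most, with 6 higher and 8 lower. In THI 1 was called lower, in IMZ 0 were called (before adjustment, 3, 1, 0, 0 and 1 genes of the 5 lists had a p under 0.05), in THI + IMZ 2 were called higher, and in THI + CTD and IMZ + CTD 1 each was called higher. The share in CTD, 14 of 77, can be read against the 12.7% of all genes called there. Of all genes, 0.543% were called in THI, 0.251% in IMZ, 1.18% in THI + IMZ, 4.39% in THI + CTD and 1.46% in IMZ + CTD. Medians of the 77 log2 fold changes lay between -0.08 in CTD and 0.01 in THI + IMZ.

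**Figure D4:**
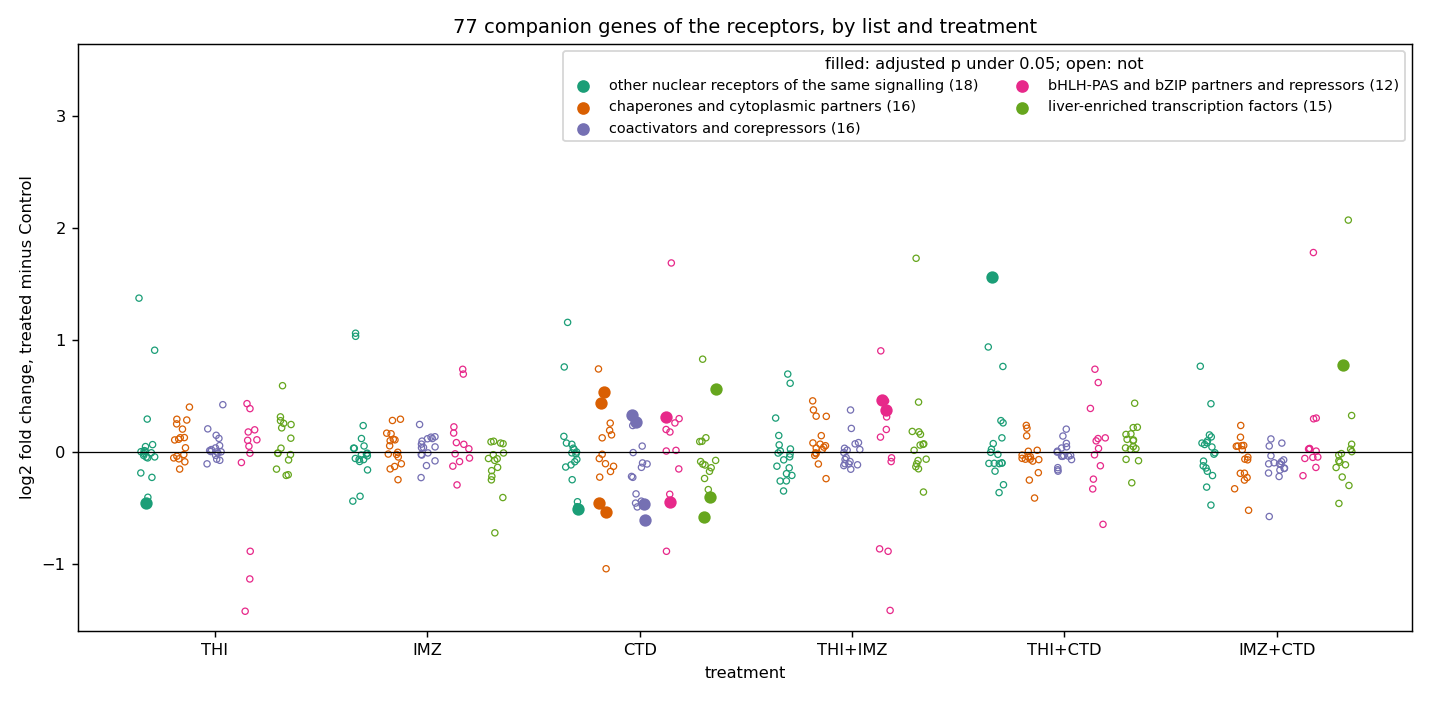
Log2 fold change against Control (vertical axis) of 77 companion genes in 5 lists (colours, number of genes in brackets) by treatment (horizontal axis), filled where the adjusted p was under 0.05. Filled points are 14 of 77 in CTD, where 12.7% of all genes were called. Each other treatment has 0 to 2, where 0.251% to 4.39% of all genes were called.

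Of the 18 other nuclear receptors, Rxrg, which codes for another RXR, was lower in THI (log2 fold change -0.46 ± 0.11, adjusted p = 0.037) and in CTD (-0.51 ± 0.12, adjusted p = 0.00362). Its levels were 22.2 to 28.9 CPM in THI and 19.8 to 28.1 CPM in CTD against 29.9 to 40.3 CPM in Control. In CTD all rats lay below all controls for 5.48% of all genes, and the share in THI is not reported here. Vdr, the vitamin D receptor, was higher in THI + CTD (1.57 ± 0.41, adjusted p = 0.0203), from a mean of 0.546 to 1.63 CPM. Of 16 chaperones and partners, 2 rose and 2 fell in CTD. Dnajc7, a co-chaperone that retains CAR in the cytoplasm, fell by 0.54 on the log2 scale, and Cul3, the ubiquitin ligase subunit that works with KEAP1, rose by 0.53. In both of these genes the CTD rats did not overlap with Control.

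Of 16 coactivators and corepressors, 2 rose and 2 fell in CTD and none was called elsewhere. Ncoa2, a coactivator of nuclear receptors, had the largest change (-0.61 ± 0.09, adjusted p = 1.39e-05), followed by Carm1 (-0.47 ± 0.10) and Tbl1xr1 (0.33 ± 0.08). Among the 12 bHLH-PAS and bZIP genes, Hif1a was higher and Bach1, a repressor at NRF2 sites, lower in CTD (0.31 ± 0.08 and -0.45 ± 0.12), and Mafg and Mafk, small Maf partners of NRF2, were higher in THI + IMZ (0.47 ± 0.11 and 0.38 ± 0.09). Of 15 liver-enriched factors, 1 rose and 2 fell in CTD. NR1D2, a clock repressor, rose in CTD (0.56 ± 0.19) and in IMZ + CTD (0.77 ± 0.17).

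To see which of the 10 genes varied together from rat to rat, the log2 CPM of each rat was taken as a deviation from the mean of its group, so that differences between treatments do not enter. Over 31 rats, 45 pairs of the 10 genes and 6 pairs of a receptor and a target were tested, with 100000 permutations of rats within groups and adjustment over the 51 pairs. A single pair passed, Keap1 and Nr3c1, with Pearson's r of -0.66 (permutation p = 0.00016, adjusted p = 0.00816) and Spearman's rho of -0.63 (permutation p = 0.00082, adjusted p = 0.0418). The coefficient was -0.67 without Control replicates 2 and 6, the 2 rats farthest from the median of Keap1. Without Control replicate 2 alone the adjusted p was 0.0673 and 0 pairs passed, and in the other 30 cases of 1 rat left out this pair passed. Further pairs passed without some rats, giving 5 pairs without THI+CTD replicate 4, 3 without THI+CTD replicate 2 and 2 without IMZ replicate 4.

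**Figure D5:**
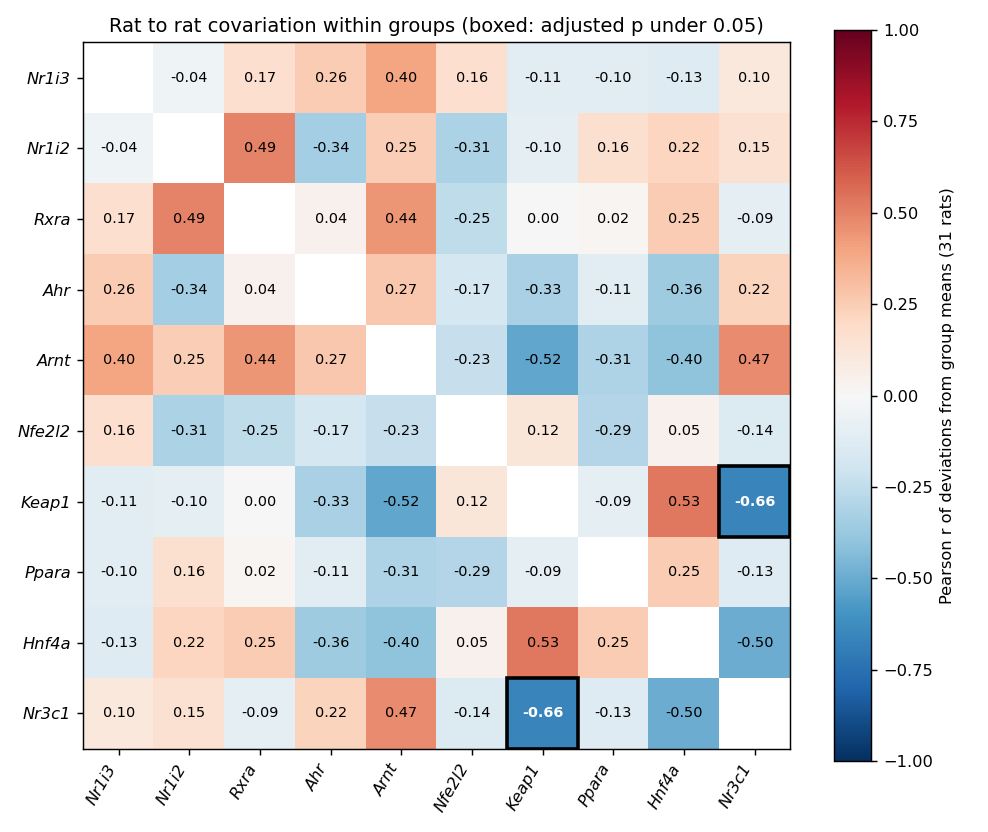
Pearson's r between the 10 genes over 31 rats, computed on deviations of log2 CPM from the group means (colour scale from -1 to 1). The boxed pair, Keap1 and Nr3c1 at -0.66, was the one with an adjusted p under 0.05, and Keap1 with Hnf4a (0.53) and with Arnt (-0.52) came next.

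Rats with more Keap1 than their group had less Nr3c1. The coefficient was negative in all 6 treated groups taken alone, which held 3 or 4 rats each. Among the 8 controls r was -0.72 (exact permutation p = 0.0564) and rho was -0.48 (exact permutation p = 0.243). The pair had been picked over these same rats, so its values within groups are a description and not further support. Deviations of Keap1 had an r of -0.31 with the log2 library total and of 0.07 with the sum of hepatocyte markers, and those of Nr3c1 of -0.05 and -0.15. Of the 45 pairs, 21 had a positive r. Receptors did not vary detectably with their targets, of which Cyp2b1 and Cyp3a23/3a1 were at 0.998 CPM or less in every Control rat. For Nr1i3 and Cyp2b1 r was 0.13 (permutation p = 0.492) and rho 0.17 (permutation p = 0.399), for Nr1i2 and Cyp3a23/3a1 0.33 (permutation p = 0.09) and 0.36 (permutation p = 0.0697), and 0 of the 6 such pairs passed the adjustment.

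Finally, the genes whose log2 CPM followed each of the 10 most closely over all 31 rats were looked up among 10875 genes with a symbol and an average log2 CPM above 0, as a description that mixes treatment and rat to rat variation. For Nr1i3 these were Ces1d (r = 0.84), a carboxylesterase, and Ugt2b35 (0.79), a glucuronosyltransferase. Keap1 was followed by Psmd8 (0.85) and Psmd3 (0.83), both subunits of the proteasome. Nr1i2 was nearest to Zbtb16 (0.73) and Syde2 (0.71), Rxra to Bcr (0.75) and Ndufb7 (0.74), and Arnt to Tmc3 (0.81) and Qprt (0.79). For Hnf4a they were Hsf1 (0.79) and Farsa (0.79), for Nr3c1 its second row NR3C1 (0.85) and Il10rb (0.76), for Ahr Arhgap31 (0.68) and Piezo2 (0.65), for Nfe2l2 Samd4a (0.61) and Acot9 (0.60), and for Ppara Sertad2 (0.67) and Fam188b (0.64).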

How the data were processed

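RNA was isolated from frozen liver of the high dose groups, and libraries were made with a stranded total RNA kit. The authors trimmed adapters, checked quality with FastQC 0.11.5, mapped reads to Rnor_5.0 with STAR 2.5.2b and deposited raw counts per gene. Annotation release and strand setting are not given in the sources used here. The other deposited file is a signal table in which the authors had divided counts by size factors from DESeq2 1.15.1. It was checked against the counts and not used for tests. Library totals were 31820322 to 101230067 counts. No rats of 1 group agreed within sampling noise.

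Genes were kept where all rats together had 2 or more counts. They were tested with edgeR 4.0.16 in R 4.3.3 (TMM, a single model of the 7 group means, quasi-likelihood test, Benjamini-Hochberg adjustment over 19904 genes, threshold 0.05). The SE is the log2 fold change over the square root of F. Log2 CPM used a prior count of 2. On simulated data with 200 changed genes among 19904, log2 fold changes of 1 were recovered in 89% to 98% of genes over the 6 treatments against Control. The simulated spread was that typical of genes of like level, and Nr1i3 and Ahr varied more than most such genes. Recovery was not tested for genes of such a spread or for smaller changes. Motifs and correlations were computed in Python 3.11.15 with numpy 2.4.6 and scipy 1.17.1.

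Alternatives were DESeq2 size factors, the Wald test of DESeq2 1.42.0, filterByExpr, no filter, a replicate block, thinned counts, fits of only the groups compared, exact dose ratios, another prior count, each rat left out in turn and, chosen after seeing the data, both Nr3c1 rows summed. Members and lists were chosen with earlier results of these data known. All 10 genes are named, with at most the 3 companions of smallest adjusted p per list and comparison, all indicator targets with a row, and the 2 genes most like each member. Some companion genes that the rule names are not reported here.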

Additional observations from a re-analysis of the deposited data

Results flagged for a closer look

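Among 60 sets of 1 gene in 1 group of 4 to 8 rats, 2 held a rat far from the others by Dixon's criterion, where chance gives about 3. Nr1i2 was at 109 CPM in THI+CTD replicate 4, with the other 3 rats of the group between 97.0 and 98.8 CPM. Nr3c1 was at 157 CPM in THI+IMZ replicate 4, with the other 3 between 109 and 116 CPM. Neither gene was called in the group concerned.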

How the results depend on the processing

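Of the recomputed values of 26 fold changes with an unadjusted p under 0.05, 991 kept their direction and side of the threshold, 15 were no longer called, 8 became called and 0 changed sign. Without the fits that left out 1 rat, these counts were 199, 5, 4 and 0. Only fold changes called in the main fit could be lost, so the losses are not to be read as a share of all these values. The Wald test of DESeq2 called 1 gene off the sum in THI + IMZ and 1 in IMZ + CTD in place of 0. Fits of only the groups compared called 1 of the 10 in THI + IMZ in place of 2, and 0 in IMZ + CTD in place of 1. With 1 rat left out in turn, the genes called were 0 to 1 in THI, 1 to 3 in CTD, 2 to 3 in THI + IMZ and 0 to 1 in IMZ + CTD, those off the sum 0 to 1 in THI + IMZ and in IMZ + CTD, and the correlated pairs 0 to 5. The cause was not tested in any of these. Over all genes, edgeR called 108 in THI, 50 in IMZ, 235 in THI + IMZ, 873 in THI + CTD and 290 in IMZ + CTD, and DESeq2 called 199, 150, 435, 1386 and 567. Off the sum, edgeR called 3 genes in THI + IMZ, 57 in THI + CTD and 230 in IMZ + CTD, and DESeq2 called 54, 174 and 603. For IMZ + CTD filterByExpr gave 391, and for IMZ the fit of only the groups compared gave 91.

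The replicate numbers were not treated as pairs. Of 78 pairs of rats with the same number, 20 correlated above 0.1, and 11 of 31 rats correlated best with their own number. The median r was 0.023 for the same number and -0.0093 for different numbers. How many such pairs and rats chance would give was not computed, so these counts do not settle whether the numbers mark a pairing. Control alone has replicates 5 to 8. A block of replicate numbers therefore compares the treatments with Control replicates 1 to 4 only, in which Nr1i3 was at 6.46, 8.87, 2.85 and 6.61 CPM. With the replicate block, 1 of the 10 genes was called in THI (Nr1i3, log2 fold change 1.47, adjusted p = 0.00637) and 0 in IMZ + CTD (Nr1i2, -0.37, adjusted p = 0.203). In CTD this block called Keap1 (-0.31, adjusted p = 0.0229) and not Arnt (-0.29, adjusted p = 0.128). In the test among the 7 groups the block called 3 of the 10 in place of 4, without Nr1i2. Over all genes the block gave 45 calls in THI, 23 in IMZ, 1571 in CTD in place of 2518, 53 in THI + IMZ, 348 in THI + CTD and 80 in IMZ + CTD, 6 off the sum in THI + IMZ and 1216 among the 7 groups in place of 1893. At the smallest count, counting error limits Nr1i3 to a precision of 9.05%.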
